A study of Mus musculus with 6 samples.

Results

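The ectodysplasin pathway genes are 6 genes taken by their symbols from the 47360 symbols of the FPKM table, namely the ligand gene Eda, the receptor genes Edar, Eda2r and Tnfrsf19, and the adaptor genes Edaradd and Traf6. They were compared over dental epithelial organoids (DEOs) grown for 14 days from epithelial stem cells of the incisor apical bud of wild-type, female C57BL/6J mice aged 9 weeks. The 4 media shared Wnt3a conditioned medium at 50%, R-spondin1 conditioned medium at 5%, EGF at 100 µg per ml and Noggin, an antagonist of BMP ligands, at 200 µg per ml, and this common base is +N. To this base +NF adds FGF10 (100 µg per ml), +ND adds dibenzazepine (DBZ), a γ-secretase inhibitor that blocks Notch receptor activation, and +NFD adds both. DBZ was at 10 µM per the labels, a figure that the methods section states in mM. The cells were dissociated dental epithelium embedded in Matrigel, not a clone or a line, and how many mice supplied each culture is not given in the sources used here. Both Jagged1 media, +NJ and +NFJ, were not used here. Each medium is represented by 1 library, so differences cannot be held against a spread between cultures, and no p-value is given.

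Ectodysplasin is a trimeric ligand of the tumour necrosis factor (TNF) family that signals within the epithelium of teeth, hair follicles and sweat glands. It is cleaved from the cell surface by furin-type proteases. Its A1 form binds EDAR, which recruits the adaptor EDARADD through a death domain, and TRAF6 with the kinase TAK1 then passes the signal to NF-kB. The A1 and A2 forms differ only by a very short stretch of residues, and A2 binds EDA2R, which recruits TRAF proteins directly. TNFRSF19, also called TROY, is a related receptor without a death domain. Loss of EDA, EDAR or EDARADD causes hypohidrotic ectodermal dysplasia, in which teeth are missing or misshapen. A gene-level FPKM value cannot separate the transcripts of A1 from those of A2.

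Estimated from the smallest steps between low FPKM values, the libraries held about 22500000 fragments in +ND and between 27900000 and 29500000 in the other 3. Intervals given below are 95% intervals of the counting error from these estimates, and they hold no variation between cultures. All 6 genes were above the value of 3 fragments in every library. The epithelial markers Krt5, Krt14, Epcam, Cdh1 and Trp63 were each at 54.8 FPKM or more in every library, and their summed level was 19608 FPKM in +N, 15269.6 in +NF, 10802 in +ND and 12564 in +NFD. The enamel matrix genes Amelx, Ambn and Enam reached 1 FPKM only in +NFD. All 5 endothelial markers stayed under 1 FPKM. The summed level of 8 fibroblast markers was between 105 FPKM in +NF and 438 in +NFD, and that of 8 macrophage markers was between 423 in +NFD and 669 in +N. Lyz2 made up most of the macrophage sum, with 528 FPKM in +N and 288 in +NFD. Cd68, Adgre1 and Ptprc were highest in +ND, Cd14 in +NFD and the other macrophage markers in +N. In such bulk RNA, fewer cells of a kind and less RNA per cell cannot be told apart.

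Edar and Edaradd, the receptor and its adaptor, were ordered in opposite ways across the media. Edar lies on chromosome 10 of GRCm38 (58600789 to 58675654, minus strand) and was measured at 1.45 FPKM in +N, 1.35 in +NF, 0.364 in +ND and 0.548 in +NFD. Its level was high in both media without DBZ and low in both media with it. Edaradd lies on chromosome 13 (12471209 to 12520450, minus strand) and was measured at 0.589 FPKM in +N, 1.14 in +NF, 3.48 in +ND and 2.96 in +NFD. The order of Edaradd levels, from +ND through +NFD and +NF to +N, is the reverse of the order of Edar levels as measured. For Edar only the split by DBZ is clear of counting error. Its counting intervals overlapped between +N and +NF, and between +ND and +NFD.

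Edar FPKM was 3.97-fold lower in +ND than in +N, with a counting interval from 2.64 to 6.03, and rested on about 30 fragments in +ND against 146 in +N. With FGF10 present, Edar was 2.47-fold lower in +NFD than in +NF, with an interval from 1.80 to 3.39. These comparisons share no library. Edar differed less with FGF10, and the levels in +NF and +N differed by a factor of 1.07 with an interval from 0.842 to 1.35. Between +NFD and +ND the ratio was 1.51, and its interval from 0.95 to 2.41 includes 1. The summed level of the epithelial markers had the same order over the media as Edar, and its part in the difference was not tested. Krt5 and Krt14 made up most of that sum, while Epcam was highest in +NF, at 218 FPKM against 122 in +N, and Trp63 was in the opposite order, as given below.

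Edaradd FPKM was 5.91-fold higher in +ND than in +N, with a counting interval from 4.82 to 7.37. On the background of FGF10 it was 2.58-fold higher in +NFD than in +NF, with an interval from 2.21 to 3.03. FGF10 without DBZ gave a 1.94-fold higher level, with an interval from 1.54 to 2.47. In the presence of DBZ the level was 1.18-fold lower with FGF10 than without it, with an interval from 1.04 to 1.33. The 6 suprabasal keratinocyte markers also summed to more in the media with DBZ, with 2350.4 FPKM in +ND against 385 in +N and 567 in +NFD against 84.4 in +NF, and their part in the Edaradd difference was not tested. Krtdap made up 1982 of the 2350.4 FPKM in +ND, while Krt10 was lower in +ND than in +N, at 32.8 against 94.1 FPKM, and Ivl was lower in +NFD than in +NF, at 1.60 against 2.48 FPKM. The fragment estimates for Edaradd use a transcript of 6668 nt, and the gene bounds in the table are wider than those of GENCODE M21, so that its fragment numbers are less certain than those of Edar.

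As FPKM is scaled to transcript length, the adaptor and the receptor can be set against each other within a library. Edar exceeded Edaradd by 2.45-fold in +N and by 1.18-fold in +NF. In the media with DBZ the order was turned, and Edaradd exceeded Edar by 9.58-fold in +ND and by 5.40-fold in +NFD. The counting intervals of the levels of both genes overlapped in +NF alone of the 4 libraries.

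**Figure D1:**
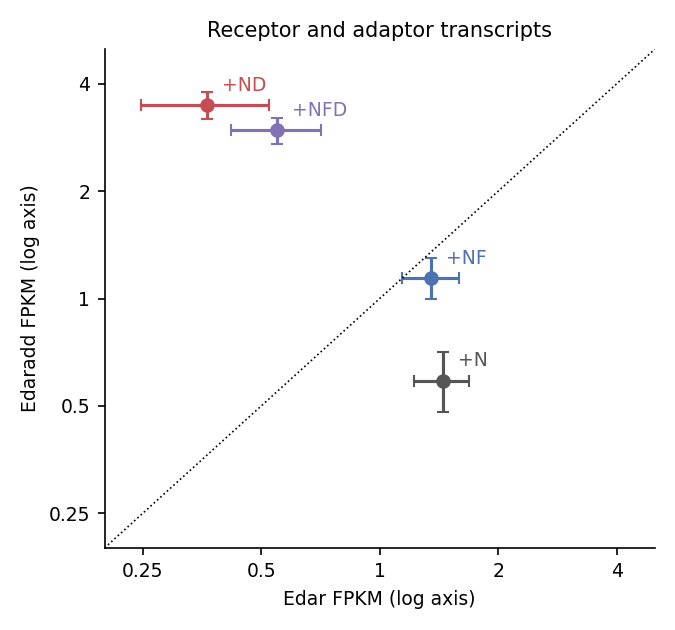
Edaradd FPKM (vertical, log axis) against Edar FPKM (horizontal, log axis) in 1 library per medium, with 95% counting intervals as bars and equal levels as a dotted line. The +ND and +NFD libraries lie far above the line, at 9.58 and 5.40 times as much Edaradd as Edar, while +N and +NF lie below it.

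The sequences upstream of Edar and Edaradd are shown because these genes moved in opposite directions with DBZ. They are the 250 bases before the RefSeq start on GRCm38.p6, read on the minus strand for both genes, at chr10:58675697-58675946 for Edar and at chr13:12520451-12520700 for Edaradd. Capitals mark matches on either strand to TGGGAA (RBPJ, the DNA-binding partner of Notch), CTTTGA (TCF/LEF), CCGGAA (ETS), TGACTCA (AP-1) or to GGG and CC separated by any 5 bases (NF-kB).
Edar: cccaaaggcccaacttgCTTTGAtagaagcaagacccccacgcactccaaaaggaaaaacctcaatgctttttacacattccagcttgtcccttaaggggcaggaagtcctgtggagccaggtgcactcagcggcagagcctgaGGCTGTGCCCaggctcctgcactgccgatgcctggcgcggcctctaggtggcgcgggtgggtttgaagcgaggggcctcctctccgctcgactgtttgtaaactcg
Edaradd: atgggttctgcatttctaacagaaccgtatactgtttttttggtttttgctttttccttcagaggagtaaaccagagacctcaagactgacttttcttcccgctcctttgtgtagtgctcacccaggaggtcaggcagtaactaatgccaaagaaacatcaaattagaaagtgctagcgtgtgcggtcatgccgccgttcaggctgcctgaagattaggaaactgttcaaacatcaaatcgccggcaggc
The Edar window holds 1 match to CTTTGA, which 13.8% of 32851 promoter windows of this length hold, and 1 match to the NF-kB pattern on the opposite strand, GGCTGTGCCC, a pattern that 45.8% of windows hold. The Edaradd window holds 0 matches to the 5 motifs. TGGGAA, held by 21.6% of all windows, was in neither. These are matches of letters only, and sites outside the windows were not searched. The Edaradd window had 46.0% G and C bases and the Edar window 58.8%, against a median of 52.4%.

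Among the receptors, Tnfrsf19 varied most over the media and Eda2r least in relative terms. Tnfrsf19 lies on chromosome 14 (60963834 to 61046855, minus strand) and was measured at 2.45 FPKM in +N, 22.8 in +NF, 7.87 in +ND and 13.4 in +NFD. The 4 counting intervals did not overlap, and the order was +NF, +NFD, +ND and +N. The intervals use the longest of 5 transcripts, and the gene bounds in the table differ from those of GENCODE M21, so they are approximate. Its FPKM was 9.33-fold higher in +NF than in +N, with an interval from 8.24 to 10.6. In log2((FPKM + 1)/(FPKM + 1)) this was 2.79, and only 0.183% of the 13090 genes compared had a ratio as high. DBZ went with a 3.21-fold higher level without FGF10 and with a 1.70-fold lower level in its presence, with intervals from 2.79 to 3.71 and from 1.60 to 1.81. Adding FGF10 to DBZ gave a 1.71-fold higher level, with an interval from 1.56 to 1.87.

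The combination therefore left Tnfrsf19 below the sum of the single log2 ratios. DBZ alone gave 1.36 and FGF10 alone 2.79, which add up to 4.15, while both together gave 2.07. A lincRNA, Gm41168, is annotated in GENCODE M21 on the opposite strand across the 5′ part of Tnfrsf19, and the strand setting of the counting is not known.

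RefSeq gives 2 starts for Tnfrsf19, and the 250 bases before each are shown because this gene had the widest range of the 6. The upstream start has its window at chr14:61046856-61047105 and the inner start at chr14:61037988-61038237, both on the minus strand of GRCm38.p6, with capitals as above.
Tnfrsf19 upstream start: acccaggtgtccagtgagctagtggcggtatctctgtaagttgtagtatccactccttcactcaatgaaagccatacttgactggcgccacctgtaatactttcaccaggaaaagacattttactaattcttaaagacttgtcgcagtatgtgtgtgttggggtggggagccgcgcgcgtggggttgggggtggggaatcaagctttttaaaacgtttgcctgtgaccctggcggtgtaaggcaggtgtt
Tnfrsf19 inner start: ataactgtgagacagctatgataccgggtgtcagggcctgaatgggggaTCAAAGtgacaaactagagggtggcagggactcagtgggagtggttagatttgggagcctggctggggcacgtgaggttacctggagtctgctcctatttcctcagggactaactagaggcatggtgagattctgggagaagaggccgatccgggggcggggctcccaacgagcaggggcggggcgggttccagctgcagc
The upstream window holds 0 matches to the 5 motifs, and the inner window holds 1 match to CTTTGA, as TCAAAG. The table does not say which start was used in which medium.

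Eda2r lies on the X chromosome (97333840 to 97377216, minus strand) and was measured at 3.53 FPKM in +N, 5.23 in +NF, 3.52 in +ND and 2.65 in +NFD. The +NF library was the highest and +NFD the lowest, while the intervals of +N and +ND overlapped almost fully. FGF10 without DBZ gave a 1.48-fold higher level, with a counting interval from 1.32 to 1.67. FGF10 in the presence of DBZ gave a 1.33-fold lower level, with an interval from 1.15 to 1.54. DBZ on the FGF10 background gave a 1.97-fold lower level, with an interval from 1.74 to 2.24.

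The makeup of the receptor transcripts thus differed between media. Edar, Eda2r and Tnfrsf19 summed to 7.42 FPKM in +N, 29.4 in +NF, 11.8 in +ND and 16.6 in +NFD. Tnfrsf19 gave 2.45 FPKM of the sum in +N and 22.8 in +NF. Of the 3, only EDAR and EDA2R are described above as binding ectodysplasin, so the sum is not a level of its receptors. Edar made up 19.5% of this sum in +N and between 3.09% in +ND and 4.6% in +NF elsewhere. Eda2r was the most abundant of the 3 in +N, at 47.5%. In the other media it was Tnfrsf19, at 66.9% in +ND, 77.6% in +NF and 80.8% in +NFD.

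**Figure D2:**
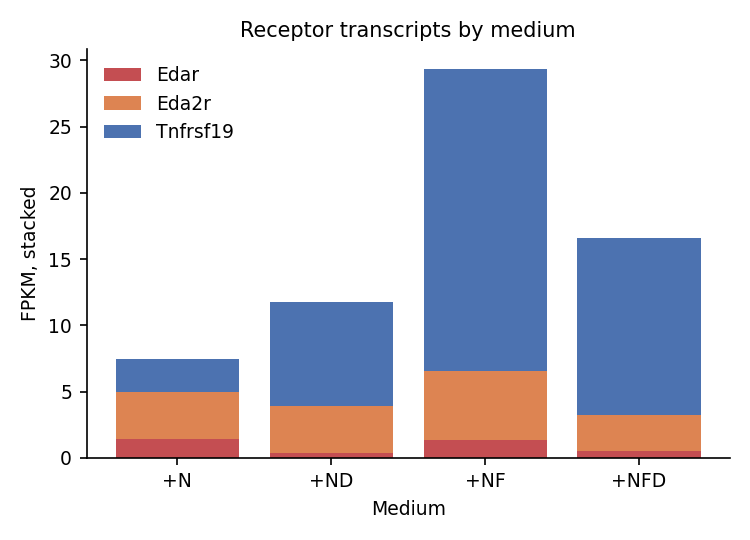
FPKM of Edar, Eda2r and Tnfrsf19 stacked for the 1 library of each medium. The stack is 7.42 FPKM high in +N and 29.4 in +NF, and Tnfrsf19 is the largest part in +ND, +NF and +NFD.

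The ligand and the shared adaptor varied little. Eda lies on the X chromosome (99975606 to 100400762, plus strand) and was measured at 0.872 FPKM in +N, 1.02 in +NF, 1.03 in +ND and 1.12 in +NFD. All 4 counting intervals overlapped, and the largest difference, between +NFD and +N, was 1.28-fold with an interval from 1.01 to 1.63. The Eda intervals use the longest of 12 transcripts and are approximate, so whether this interval leaves out 1 is not certain. Of 3 processed pseudogenes annotated inside Eda, 2 were listed at 0 in every library, and Gm14829 was at 0.0226 FPKM in +NFD and at 0 elsewhere. Traf6 lies on chromosome 2 (101678429 to 101701669, plus strand) and was measured at 8.10 FPKM in +N, 8.42 in +NF, 11.4 in +ND and 8.22 in +NFD. The +ND library stood above the other 3, which had overlapping intervals, and Traf6 was 1.40-fold higher in +ND than in +N with an interval from 1.30 to 1.51. In +NFD it was 1.38-fold lower than in +ND, with an interval from 1.29 to 1.48. Traf6 exceeded Edar in every library, by 5.60-fold in +N and by 31.2-fold in +ND.

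**Figure D3:**
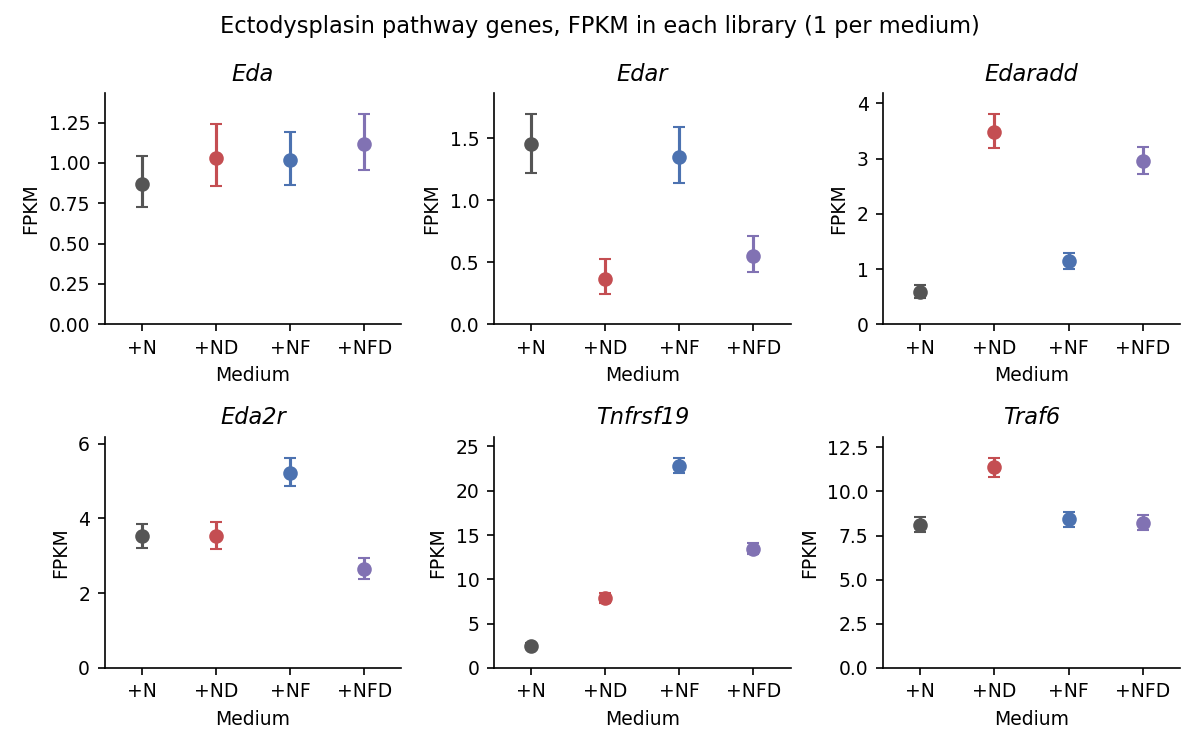
FPKM of the 6 genes in 1 library per medium, each panel on its own axis from 0, with 95% counting intervals as bars. Edar is low and Edaradd high in both media with DBZ, Tnfrsf19 is highest in +NF at 22.8 FPKM, and the intervals of Eda overlap in all 4 media.

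For counts, a gene was called at a 2-fold ratio of FPKM + 1, a scale on which changes of weakly expressed genes such as Edar and Edaradd appear smaller. In +ND relative to +N, 2 of the 6 genes were called higher, Edaradd with a log2 ratio of 1.5 and Tnfrsf19 with 1.36, against 5.88% of the 13173 genes compared. None of the 6 was called lower, against 5.29% of all genes. Edar missed the limit with -0.84, and passed it with a pseudocount of 0.1, at -1.74, against 7.25% of all genes. In +NF relative to +N, 1 gene was called higher, Tnfrsf19, against 2.76% of all genes, and 0 were called lower, against 2.44%. In +NFD relative to +N the 2 genes called higher were Tnfrsf19 with 2.07 and Edaradd with 1.32, against 5.85% of all genes, and 0 were called lower, against 4.03%. Edar was at -0.66, and at -1.25 with a pseudocount of 0.1, where 5.56% of all genes were called lower. These 3 comparisons share the +N library.

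In +NFD relative to +NF, 0 of the 6 genes were called, against 6.41% of all genes in either direction. With a pseudocount of 0.1, Edaradd was called higher at 1.30 and Edar lower at -1.17, against 5.53% and 3.98% of all genes. In +NFD relative to +ND, 0 of the 5 genes that reached 1 FPKM were called, against 6.50% of all genes, and Edar was below the filter in both libraries. The median log2 ratio of all genes was 0.10 in +ND, 0.12 in +NF and 0.18 in +NFD relative to +N. Centring on it changed the genes called higher and lower from 774 and 697 to 615 and 842 in +ND, from 361 and 319 to 248 and 412 in +NF, and from 782 and 538 to 540 and 714 in +NFD. In +NFD relative to +ND they changed from 450 and 414 to 345 and 506. After centring, Edaradd was still called higher in +ND at 1.39 and in +NFD at 1.14, and Tnfrsf19 in +ND at 1.26, in +NF at 2.67 and in +NFD at 1.89. The shares of all genes called higher were then 4.67%, 1.89% and 4.04%.

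**Figure D4:**
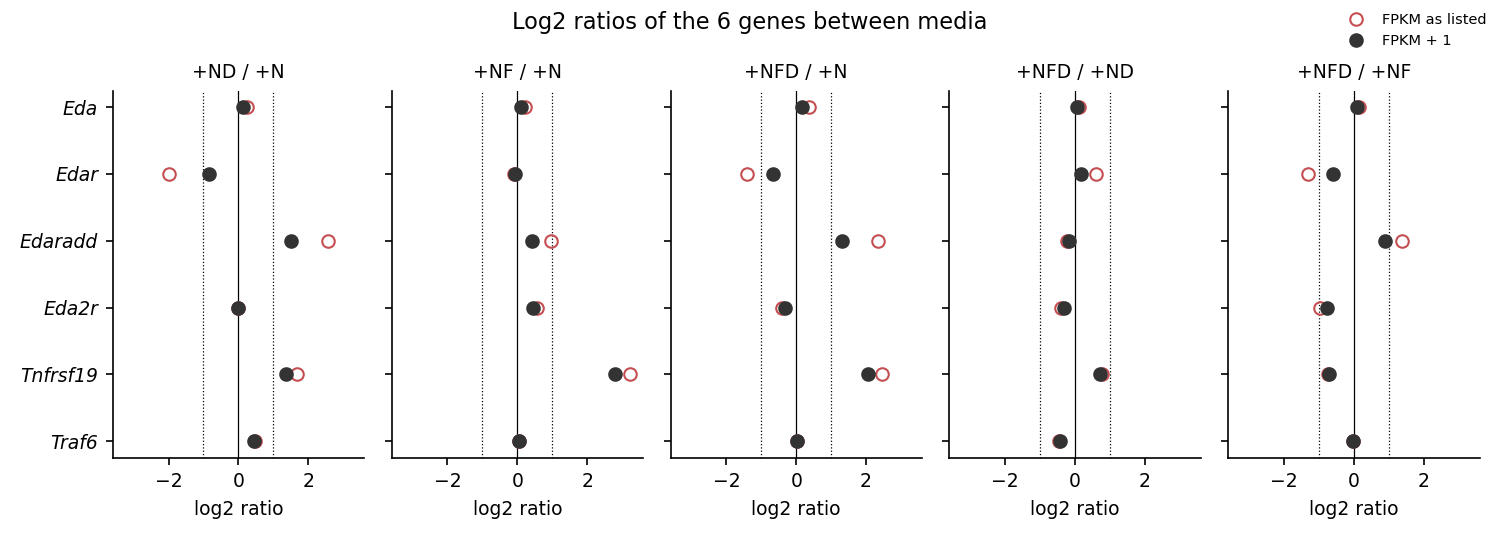
Log2 ratio (horizontal) of each of the 6 genes in 5 comparisons, with filled points for FPKM + 1, open points for FPKM as listed, and dotted lines at 2-fold. Edar and Edaradd lie on opposite sides of 0 in each comparison of a medium with DBZ to one without, and in these 3 comparisons the pseudocount moves Edar from outside to inside the lines.

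Beyond the 6 genes, a list for the chain from TRAF proteins to NF-kB was examined. Every gene of it except Traf1 was at 1 FPKM or more in all media. The list holds 18 genes of TRAF adaptors, TAK1 complex members, IκB kinases and NF-kB subunits. All 18 passed the filter in each comparison with +N, which asks for 1 FPKM in the higher library only. In +ND, 0 were at least 2-fold higher and 1 was at least 2-fold lower, against 5.88% and 5.29% of all genes, with a median log2 ratio of -0.11 against 0.10 for all genes. In +NF the counts were 0 and 0, against 2.76% and 2.44%, with a median of -0.05 against 0.12. In +NFD they were 0 and 1, against 5.85% and 4.03%, with a median of -0.03 against 0.18. These counts are near the shares of all genes. The gene at least 2-fold lower was Traf1, an adaptor that NF-kB itself induces, at 5.26 FPKM in +N, 2.98 in +NF, 0.492 in +ND and 0.832 in +NFD. Map3k7, which encodes the kinase TAK1, was between 19.0 FPKM in +N and 24.8 in +ND, and Tab2, its binding partner, between 33.7 in +N and 39.2 in +ND. Ikbkg, which encodes the kinase regulator NEMO, was between 15.5 FPKM in +ND and 19.0, and Rela, the p65 subunit, between 28.9 in +NF and 34.3 in +NFD.

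Of 7 genes of NF-kB inhibition, many of which NF-kB induces as feedback, 0 were at least 2-fold changed relative to +N in any of the 3 media. The shares of all genes higher and lower were 5.88% and 5.29% in +ND, 2.76% and 2.44% in +NF, and 5.85% and 4.03% in +NFD, so a count of 0 of 7 is near the background. All 7 were below their +N value in +ND and in +NFD, where 41.8% and 30.9% of all genes were below theirs. In +NF this was so for 6 of 7, against 34.3% of all genes, and Cyld was above it, at 9.57 FPKM against 8.28. Their median log2 ratios were -0.43, -0.42 and -0.39, against 0.10, 0.12 and 0.18 for all genes. These comparisons share the +N library. In +NFD relative to +NF, 3 were above 0 and 4 below, with a median of -0.04 against 0.05 for all genes. In +NFD relative to +ND, 4 were above 0 and 3 below, with a median of 0.12 against 0.09. Nfkbia, which encodes IκBα, was at 184 FPKM in +N, 113 in +NF, 168 in +ND and 134 in +NFD.

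Among 4 proprotein convertases, the enzyme family that sheds ectodysplasin, 2 were at least 2-fold lower in +ND and 0 were higher, against 5.29% and 5.88% of all genes. Furin was at 105 FPKM in +N, 114 in +NF, 48.4 in +ND and 76.6 in +NFD. Pcsk5 was at 7.19 FPKM in +N and 7.29 in +NF, and at 0.0846 in +ND and 0.377 in +NFD. Pcsk6 was highest in the media with DBZ, at 4.42 FPKM in +N, 5.41 in +NF, 8.77 in +ND and 13.5 in +NFD. In +NF, 0 of the 4 were 2-fold changed, against 2.76% of all genes higher and 2.44% lower. In +NFD Pcsk6 was higher and Pcsk5 lower, against 5.85% and 4.03% of all genes. The list medians relative to +N were -0.75 in +ND, 0.08 in +NF and -0.23 in +NFD, against 0.10, 0.12 and 0.18 for all genes.

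Of 16 genes known to respond to EDA in developing skin appendages, 11 passed the filter in +ND, 12 in +NF and 13 in +NFD relative to +N. In +ND 1 was at least 2-fold higher and 1 lower, against 5.88% and 5.29% of all genes, and 2 were lower after centring, against 6.39%. With a pseudocount of 0.1, 2 were higher and 2 lower in +ND, against 9.2% and 7.25%. In +NF the counts were 2 and 1, against 2.76% and 2.44%, and 3 were higher with a pseudocount of 0.1, against 5.44%. In +NFD they were 3 and 2, against 5.85% and 4.03%, and 4 were lower with a pseudocount of 0.1, against 5.56%. Their medians were -0.24, 0.12 and 0.05, against 0.10, 0.12 and 0.18 for all genes. In +NFD relative to +NF, 1 of 13 was higher (Shh) and 3 were lower (Ctgf, Pthlh and Foxi3), against 3.72% and 2.69% of all genes, and 5 were lower with a pseudocount of 0.1, against 3.98%. The median there was -0.64 against 0.05 for all genes. In +NFD relative to +ND, 2 of 11 were higher (Shh and Foxi3) and 0 lower, against 3.39% and 3.11% of all genes. The median of that comparison was 0.09, against 0.09 for all genes. Pthlh, which encodes a parathyroid hormone-related protein, was lower in all 3 media, at 200.2 FPKM in +N, 84.3 in +NF, 33.9 in +ND and 34.1 in +NFD. Sostdc1, an extracellular BMP and Wnt antagonist of the tooth, was higher in all 3, at 8.33 FPKM in +N, 43.0 in +NF, 42.1 in +ND and 62.7 in +NFD. Foxi3, a forkhead factor of ectodermal placodes, was at 0.545 FPKM in +N, 5.85 in +NF and 2.40 in +NFD and was listed at 0 in +ND. Its ratio of 1.14 in +NFD fell under 2-fold after centring. Shh, a placode and enamel knot signal, was at 8.74 FPKM in +NFD and at 0.679 or less in the others. Ctgf, also named Ccn2, was lowest in +NFD, at 2.02 FPKM against 6.19 in +N. Dkk4, a Wnt antagonist that EDA induces in placodes, did not exceed 0.0266 FPKM in any library.

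Of 5 genes that act upstream of Eda, Edar or Edaradd in skin or tooth, 1 was at least 2-fold higher in each of +ND, +NF and +NFD, against 5.88%, 2.76% and 5.85% of all genes, and 0 were lower. The medians relative to +N were 0.46, 0.11 and 0.36, against 0.10, 0.12 and 0.18 for all genes. The gene was Bmp4, at 5.04 FPKM in +N, 13.3 in +NF, 11.3 in +ND and 15.9 in +NFD, and its ratio of 1.03 in +ND fell under 2-fold after centring. Trp63, which encodes the p63 factor of stratified epithelia, was at 88.5 FPKM in +N, 100.4 in +NF, 166 in +ND and 124 in +NFD. Its order, +ND, +NFD, +NF and +N, was that of Edaradd. Lef1, a transcription factor of Wnt signalling, was between 1.08 FPKM in +N and 1.67 in +NFD.

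**Figure D5:**
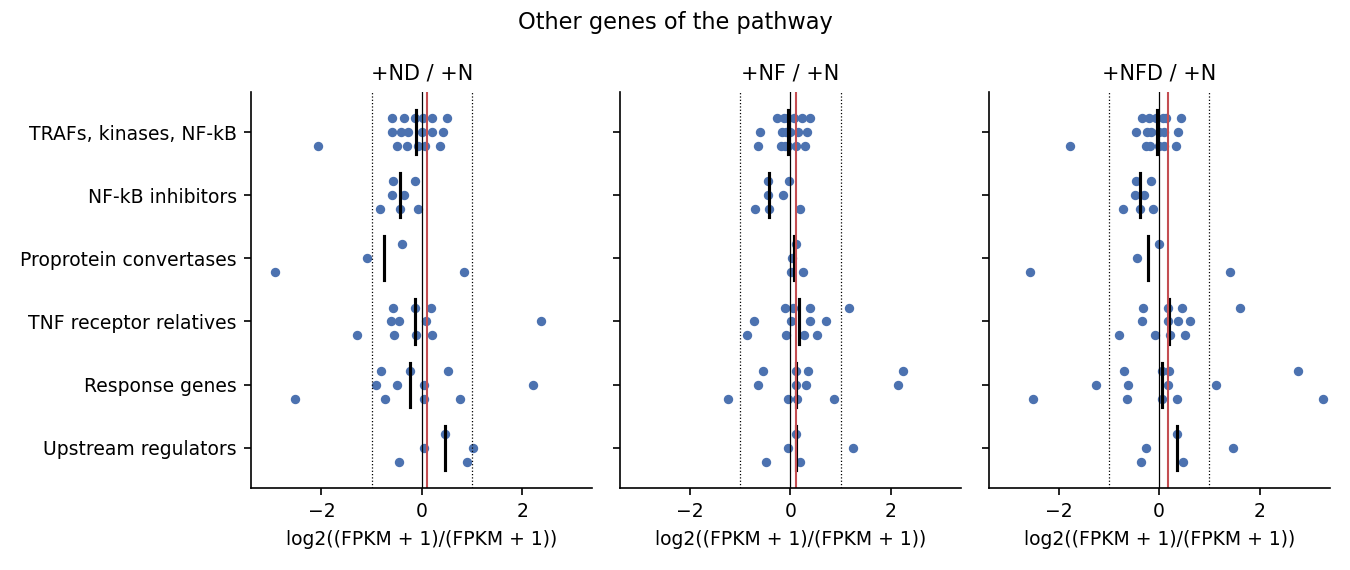
Log2 ratios relative to +N of the genes in 6 lists that passed the filter, with black bars at list medians, a red line at the median of all genes and dotted lines at 2-fold. Most genes of the TRAF and NF-kB list lie within the dotted lines, and all 7 NF-kB inhibitors are below 0 in +ND and +NFD.

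Genes alike in pattern were sought for Edaradd and Tnfrsf19, whose log2 levels ranged over at least 1. The measure was the root mean square difference of mean-centred log2(FPKM + 1) over the 4 libraries. Nearest to Edaradd among 12393 protein-coding genes was Raph1, at a distance of 0.035, with 3.06 FPKM in +N, 4.65 in +NF, 10.1 in +ND and 8.91 in +NFD. Mtss1l and Tspan5 followed at 0.0388 and 0.0744, and 20 genes lay within 0.15. Tnfrsf19 had no gene within 0.15, and the nearest was Thsd4 at 0.253, with 2.56 FPKM in +N, 18.9 in +NF, 5.10 in +ND and 14.3 in +NFD. Next were Bmp3 at 0.276 and Cyfip2 at 0.312. With 4 libraries, some genes are alike by coincidence.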

How the data were processed

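The authors deposited a table of FPKM, that is, fragments per kilobase of transcript scaled to library size, with 1 library for each of 4 media. Per the submitters' processing notes, FastQC 0.11.9, Trim Galore 0.6.5 and TopHat 2.1.1 were used with GRCm38, and Cufflinks estimated abundances. Annotation release, strand setting and Cufflinks options were not given in the sources used here. Since transcript length enters each value, FPKM depends on the gene models.

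Entries sharing a symbol (123 of 47360) were summed here, and the 6 genes have 1 entry each. Ratios were log2((FPKM + 1)/(FPKM + 1)) for genes reaching 1 FPKM in the higher library, called at 2-fold, with no test. Fragment numbers were estimated from the smallest steps in FPKM multiplied by length, over 8367 genes with 1 transcript of at least 1000 nt in GENCODE M21. Of values up to 3.5 steps, between 58.4% and 66.4% lay within 0.2 of a whole number. A sizeable part of values would lie there without any steps, so the fit is loose and the fragment numbers are approximate. Exact Poisson intervals for levels and conditional binomial intervals for ratios rest on them and cover counting error only. For each of the 6 genes they use its longest transcript, of 12 for Eda, 5 for Tnfrsf19, 4 for Eda2r and 3 for Traf6.

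The 6 genes, gene lists and motifs were chosen with earlier results of these data known. List genes were named if 2-fold changed relative to +N (up to 8 per list) or if they belong to a set of core genes (Ikbkg, Rela, Nfkbia, Furin, Map3k7, Tab2, Trp63, Lef1, Shh, Dkk4). For each of the 6 whose log2 level ranged over at least 1, the 3 protein-coding genes nearest in pattern were named. Alternatives were a pseudocount of 0.1 or none, no filter or one of 5 FPKM, scaling to the upper quartile, centring on the median ratio, and the highest entry per symbol. The ratio script was tested on simulated data with counting noise only, which says nothing of false calls from variation between cultures. Software was Python 3.11.15, pandas 2.3.3, numpy 2.4.6, matplotlib 3.10.9 and scipy 1.17.1.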

Additional observations from a re-analysis of the deposited data

Results flagged for a closer look

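For 5 of the 6 genes, FGF10 or DBZ went with a higher level in one background and a lower level in the other, which was so for 59.3% of 13748 genes, so the count is no result about the 6. The difference of the log2 ratios between backgrounds, which is the same number for both agents, was -2.09 for Tnfrsf19, -0.77 for Eda2r, -0.61 for Edaradd, -0.47 for Traf6 and 0.24 for Edar. The median of this difference over all these genes was -0.02. The share of genes at least as low was 0.48% for Tnfrsf19, 8.39% for Eda2r, 13.3% for Edaradd and 19.7% for Traf6, and 29.9% were at least as high as Edar. For Tnfrsf19 the sign of the DBZ ratio changed, from 1.36 without FGF10 to -0.72 with it. For Eda2r it was that of the FGF10 ratio, from 0.46 without DBZ to -0.31 with it, and for Edaradd from 0.43 to -0.18. For Traf6 the DBZ ratio was 0.44 and -0.03 and the FGF10 ratio 0.05 and -0.42. The counting intervals of the Traf6 folds behind -0.03 and 0.05 include 1, at 0.909 to 1.05 and 0.966 to 1.12, and the FGF10 ratio of 0.05 was -0.02 with scaling to the upper quartile and -0.07 after centring. The FGF10 ratio of Edar was -0.06 without DBZ and 0.18 with it, the latter from values below 1 FPKM, and both counting intervals of the fold include 1, at 0.74 to 1.19 and 0.95 to 2.41. None of these differences was tested, since each medium has 1 library.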

How the results depend on the processing

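No paired analysis was possible because each medium has 1 library. No log2 ratio of the 6 genes that was called changed sign under the 7 alternatives. A filter of 5 in place of 1 FPKM left 2 of the 6 genes, Tnfrsf19 and Traf6, in +ND and in +NFD against +N, of which 1 was called higher in each, where 5.88% and 4.86% of all genes were. In +NFD relative to +NF, 2 of the 6 were called with a pseudocount of 0.1 (1 higher and 1 lower, against 5.53% and 3.98% of all genes) and 2 without one (against 5.44% and 3.93%). Over all genes, a pseudocount of 0.1 and no pseudocount gave 1192 and 1197 genes called in +NF relative to +N in place of 680, 2014 and 1997 in +NFD relative to +N in place of 1320, and 1394 and 1412 in +NFD relative to +ND in place of 864. Without a pseudocount the log2 ratio of Edar was -1.99 for +ND and -1.40 for +NFD against +N, and -1.31 in +NFD relative to +NF. The depth limits Edar most, with about 30 fragments in +ND.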

Other observations

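Among 13 other receptors of the TNF receptor family, 11 passed the filter in +ND and 12 in +NF and +NFD relative to +N. Tnfrsf21, which encodes death receptor 6, was at least 2-fold higher in +ND, at 17.3 FPKM against 2.53 in +N, 0.947 in +NF and 3.59 in +NFD. Tnfrsf11b, which encodes osteoprotegerin, a decoy receptor for RANKL, was at least 2-fold lower in +ND, at 16.6 FPKM against 42.0 in +N, 39.4 in +NF and 32.9 in +NFD. Cd40 was at least 2-fold higher in both media with FGF10, at 4.67 FPKM in +N, 11.7 in +NF, 5.43 in +ND and 16.4 in +NFD. In all, 1 receptor was higher and 1 lower in +ND, and 1 was higher and 0 lower in each of +NF and +NFD. The shares of all genes higher and lower were 5.88% and 5.29% in +ND, 2.76% and 2.44% in +NF, and 5.85% and 4.03% in +NFD. With a pseudocount of 0.1, 1 receptor was higher and 1 lower in +NF, against 5.44% and 3.67% of all genes, and 2 were higher and 1 lower in +NFD, against 9.51% and 5.56%. The median log2 ratios were -0.13, 0.16 and 0.19, against 0.10, 0.12 and 0.18 for all genes.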
